A study of Mus musculus with 2 samples.

Results

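The miRNAs miR-15, miR-16, miR-322 and miR-503 were followed here as 10 mature arms of 1358 mature miRNAs listed in the retina of newborn mice. The arms were taken by name, namely miR-15a-5p, both arms of miR-15b, miR-16-5p with the 3p arms of its hairpin copies miR-16-1 and miR-16-2, and both arms of miR-322 and miR-503. All 10 had counts in both libraries, as did 924 of the 1358. The series holds 1 group of 2 small RNA libraries, replicate 1 and replicate 2, from whole retina of wild-type mice of the outbred CD-1 strain at postnatal day 0. No label says that the libraries stem from different animals or litters, so SDs measure only the spread between these libraries, which may be technical, and the exact tests below measure counting error. With 1 group there is no condition to compare, and the data give the level, the arm use and the form of each arm, and how far the libraries differed.

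miRNAs are short RNAs cut from a hairpin precursor, and either arm of the hairpin, 5p or 3p, can be loaded into Argonaute and pair with messenger RNAs through its seed, bases 2 to 8 from the 5′ end. The miR-15/16 family is known as a brake on the cell cycle, since its members repress cyclins D and E, cyclin-dependent kinases and the anti-apoptotic gene Bcl2. miR-322 and miR-503 come from a shared X-linked transcript, repress an overlapping set of cell cycle genes and are best known from muscle and vascular cells. The newborn mouse retina still holds dividing progenitors beside neurons that have left the cycle. In RNA from the whole retina, fewer cells of a type and less RNA per cell cannot be told apart.

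The sequences below are the RefSeq mature forms on GRCm38.p6, in which all 10 arms were found, with the seed in capitals. The 5p arms are shown first because their shared seed is what makes the family.
miR-15a-5p: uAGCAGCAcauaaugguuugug
miR-15b-5p: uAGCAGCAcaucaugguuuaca
miR-16-5p: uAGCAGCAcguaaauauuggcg
miR-322-5p: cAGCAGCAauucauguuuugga
miR-503-5p: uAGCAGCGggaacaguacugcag
The 3p arms follow, because several of them were as abundant as a 5p arm.
miR-15b-3p: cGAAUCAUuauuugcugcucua
miR-16-1-3p: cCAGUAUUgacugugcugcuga
miR-16-2-3p: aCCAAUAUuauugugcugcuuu
miR-322-3p: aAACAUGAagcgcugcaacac
miR-503-3p: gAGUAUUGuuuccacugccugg

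Of the 5 arms from the 5p side, 4 shared the seed AGCAGCA, and miR-503-5p differed from them at the last seed base, as A8G against miR-16-5p with positions counted from 1 at the 5′ end. Outside the seed the arms diverged, with differences counted over the whole arm. miR-15a-5p and miR-15b-5p differed at 4 of 22 positions, miR-15a-5p and miR-16-5p at 6 of 22, and miR-16-5p and miR-322-5p at 10 of 22. The 5 arms from the 3p side had 5 different seeds.

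The hairpins lie at 3 places in the genome. Mir15a (chr14:61632027-61632110) and Mir16-1 (chr14:61631880-61631972) lie on the minus strand, 54 bases apart, in the non-coding host gene Dleu2. In GENCODE M21, Mir15a is intronic and Mir16-1 overlaps an annotated Dleu2 exon by 13 bases. Mir15b (chr3:69009772-69009835) and Mir16-2 (chr3:69009902-69009996) lie on the plus strand, 66 bases apart, in an intron of Smc4, which encodes a condensin subunit needed for chromosome condensation. Mir322 (chrX:53054255-53054349) and Mir503 (chrX:53053984-53054054) lie on the minus strand, 200 bases apart, outside other annotated genes of that strand. The coordinates and hosts come from the reference annotation and not from the deposited tables.

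The libraries held 8337903 and 8118208 counts, and levels are given as CPM, counts scaled to these totals. The limit that a count of 0 allows (3 counts) was 0.36 CPM in replicate 1 and 0.37 in replicate 2, and intervals and limits cover counting error only. The retina label was checked against 5 miRNAs of neural retina (miR-9-5p, miR-124-3p, miR-182-5p, miR-183-5p and miR-96-5p), which together held 40.9% ± 1.52 of the counts. miR-9-5p, miR-182-5p and miR-183-5p stood at ranks 1, 2 and 5, while the neuronal miR-124-3p had 701 and 597 CPM by replicate (rank 91), below miR-16-5p. miR-15a and miR-16 are also abundant in blood cells, so markers of other cells are given here. Of 7 red blood cell markers, 6 were detected in both libraries, summing to 153 and 168 CPM by replicate. Nearly all of this was miR-486, with 61.5 and 63.2 CPM for each of miR-486a-5p and miR-486b-5p and 28.8 and 40.3 CPM for miR-486a-3p. The defining miR-451a had 3 counts in each library, and miR-144-3p had 2 and 1. Of 4 leukocyte markers 2 were detected in both libraries, summing to 2.16 and 2.22 CPM, and neither library held a count of miR-223-3p or miR-150-5p. The 2 endothelial markers summed to 985 and 854 CPM. The part of such cells in the levels below was not tested.

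The 10 arms together held a small share of the retina's miRNA, and miR-16-5p made up most of it. Replicate 1 held 1563 CPM of them and replicate 2 held 1398 CPM, which is 0.148% ± 0.0116 of all counts (SD, n = 2). miR-16-5p held 58.3% ± 3.03 of the counts of the group, followed by miR-16-1-3p with 13.1% ± 1.82. The median arm stood at 57.1 CPM. Of the 10 arms, 8 reached 10 CPM and 4 reached 100 CPM, against 364 and 180 of all 1358 listed.

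**Figure D1:**
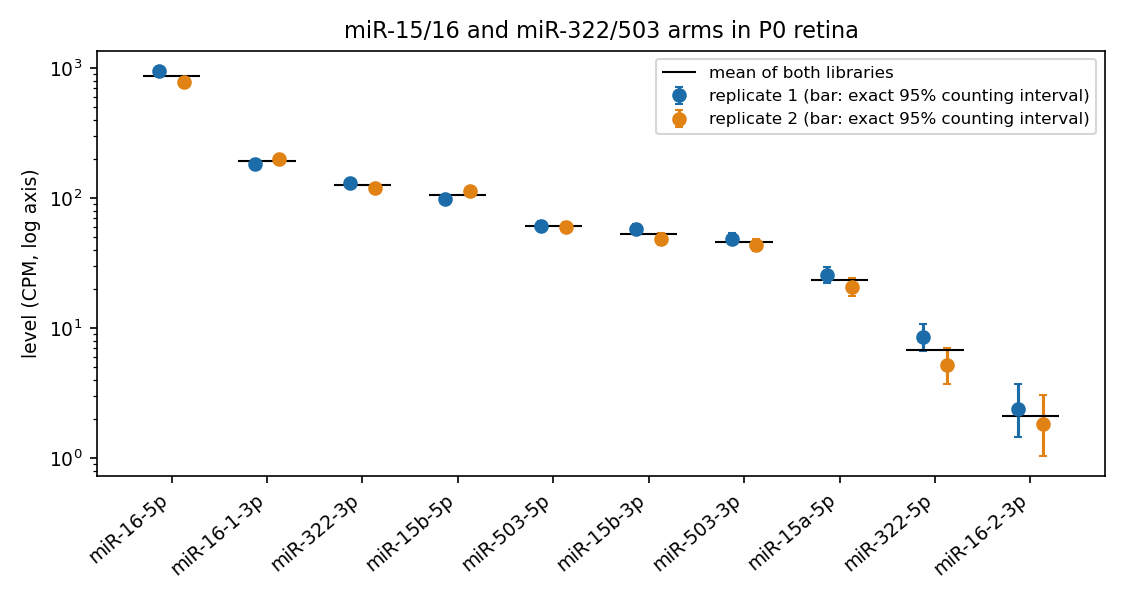
Level of each of the 10 arms in CPM on a log axis, with a point per library (replicate 1 blue, replicate 2 orange), bars for the exact 95% counting interval and a black line for the mean. miR-16-5p stands alone at 865 CPM, 6 arms lie between 46.1 and 192 CPM, and miR-16-2-3p is lowest at 2.12 CPM.

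miR-16-5p, the most widely expressed arm of the family, had 7871.5 counts in replicate 1 and 6372.5 in replicate 2, which is 944 CPM (exact 95% interval 923 to 965) and 785 CPM (766 to 805). Its mean of 865 ± 112 CPM put it at rank 78 of 1358. The libraries' intervals did not overlap, and replicate 1 was the higher. Of the 10 arms only miR-16-5p had fractional counts. Its near relative miR-195a-5p, which differs from it at 2 of 21 positions (G10A and U11G), also had counts ending in 0.5 in both libraries.

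The other arms with the AGCAGCA seed were far lower. miR-15b-5p, made beside miR-16-2 in the Smc4 intron, had 98.8 and 113 CPM (mean 106 ± 9.99, rank 176). miR-15a-5p, made beside miR-16-1 in Dleu2, had 25.8 and 20.8 CPM (mean 23.3 ± 3.51, rank 294). miR-322-5p, the mouse counterpart of human miR-424, had 71 and 42 counts, or 8.52 and 5.17 CPM (mean 6.84 ± 2.36, rank 399). Its SD was 34.5% of its mean, the largest of the 10 arms, and its counting intervals of 6.65 to 10.7 and 3.73 to 6.99 CPM overlapped. miR-503-5p, whose seed ends in G, had 61.5 and 60.2 CPM (mean 60.9 ± 0.913, rank 209).

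In fixed pairs of arms, miR-16-5p exceeded both partners by ratios larger than their spread. The log2 ratio of miR-16-5p over miR-15a-5p was 5.19 and 5.23 by replicate, a 37.1-fold difference (mean 5.21 ± 0.029). Over miR-15b-5p it was 3.26 and 2.80, an 8.14-fold difference (3.03 ± 0.32). miR-15b-5p exceeded miR-15a-5p 4.55-fold (2.19 ± 0.35), and miR-322-5p was 9.09-fold below miR-503-5p (log2 ratio -3.19 ± 0.48). A ratio counted as beyond the spread if its sign matched in both libraries and its mean was over 2 SD, and all 7 fixed pairs met this. The rule was not applied to pairs of other miRNAs, so how often arbitrary pairs would meet it is not known. Adapter ligation differs in yield between sequences, and each ratio between different arms includes that difference. miR-16-5p is cut from both Mir16-1 and Mir16-2, so its excess over either neighbour also adds the output of 2 hairpins.

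Set in order of mean level, the arms ran miR-16-5p, miR-16-1-3p, miR-322-3p, miR-15b-5p, miR-503-5p, miR-15b-3p, miR-503-3p, miR-15a-5p, miR-322-5p and miR-16-2-3p. Of the 9 neighbouring pairs in this order, 7 differed beyond the spread. No share over pairs of other miRNAs stands beside this count, so it is not read as a trait of the group. The exceptions were miR-322-3p over miR-15b-5p (log2 ratio 0.24 ± 0.22) and miR-503-5p over miR-15b-3p (0.20 ± 0.15). The smallest step that met the rule was miR-15b-3p over miR-503-3p (0.20 ± 0.052), and the largest was miR-16-5p over miR-16-1-3p (2.16 ± 0.28).

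The arms were also grouped by seed over the whole table. Of the 1358 arms, 1152 had a RefSeq mature sequence by name, and these formed 982 seed groups. The 6 listed arms with AGCAGCA were the 4 named above, miR-195a-5p and miR-497a-5p, and their sum was 1151 and 984 CPM by replicate. With a mean of 1068 ± 118 CPM the group stood at rank 47 of the 982, and at rank 19 of the 117 groups with 2 or more arms. miR-16-5p gave 80.9% ± 1.57 of its counts and miR-15b-5p 10.0% ± 2.05. The relatives miR-195a-5p (40.4 ± 5.77 CPM) and miR-497a-5p (26.5 ± 4.23 CPM), from a hairpin pair on chromosome 11, stood beside 23.3 ± 3.51 CPM for miR-15a-5p. miR-497a-5p had 29.5 CPM, against 25.8 CPM for miR-15a-5p, in replicate 1, and 23.5 against 20.8 CPM in replicate 2.

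miR-103-3p and miR-107-3p, which carry the same bases shifted by 1 position, together exceeded the AGCAGCA group. Their seed is GCAGCAU, and they are counted with miR-15/16 in a wider group of related miRNAs. These sequences are shown for the offset, with the seed in capitals.
miR-103-3p: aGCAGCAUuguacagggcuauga
miR-107-3p: aGCAGCAUuguacagggcuauca
By replicate, miR-103-3p had 2487 and 2709 CPM and miR-107-3p had 90.4 and 84.0 CPM. Their sum exceeded that of the AGCAGCA group 2.52-fold (log2 ratio 1.33 ± 0.24).

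The hairpin copies of miR-16 can be told apart only by their 3p arms, and these differed in level more than any other fixed pair. The hairpins are shown with both mature arms in capitals.
Mir16-1: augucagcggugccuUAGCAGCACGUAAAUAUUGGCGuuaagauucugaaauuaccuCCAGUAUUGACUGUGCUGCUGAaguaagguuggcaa
Mir16-2: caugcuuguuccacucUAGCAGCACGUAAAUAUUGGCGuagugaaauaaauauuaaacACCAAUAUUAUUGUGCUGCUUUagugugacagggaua
The 5p arms of the copies have the same sequence, so no count of miR-16-5p can be assigned to a copy. miR-16-1-3p, from Dleu2, had 1533 and 1628 counts, or 184 and 201 CPM (mean 192 ± 11.8, rank 145). miR-16-2-3p, from Smc4, had 20 and 15 counts, or 2.40 and 1.85 CPM (mean 2.12 ± 0.39, rank 536). miR-16-1-3p was thus 88.7-fold above miR-16-2-3p (log2 ratio 6.23 and 6.72, mean 6.47 ± 0.35).

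The 3p arms of the hairpins next to Mir16-1 and Mir16-2 stood in the other order, with miR-15b-3p at 53.2 ± 6.47 CPM and miR-15a-3p at 4.55 ± 1.20 CPM. Over both arms Mir16-1 and Mir16-2 cannot be ordered, because their 5p arm is shared. The miR-15b hairpin, neighbour of Mir16-2, summed to 159 ± 3.52 CPM over both arms, against 27.8 ± 4.72 CPM for the miR-15a hairpin, neighbour of Mir16-1. Within the Smc4 intron, miR-16-2-3p was 24.5-fold below miR-15b-3p (log2 ratio -4.62 ± 0.082). Arm choice, stability and ligation yield can differ between these sequences, and their part in the ratios was not tested.

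Most hairpin names of the group had more of the 5p arm, and miR-322 had almost only the 3p arm. Arms were compared by an exact binomial test of equal counts in each library, adjusted by the Benjamini-Hochberg method over 337 hairpin names. A call needed an adjusted p under 0.05 and the same direction in each library, and a mean log2 ratio over 2 SD. All 5 hairpin names of the group were called, 4 with more 5p and 1 with more 3p. As 89.6% of all tested names were called (47.8% with more 5p, 41.8% with more 3p), such a count is common in these libraries.

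miR-322 is shown beside miR-503, its neighbour on the X chromosome, with the mature arms in capitals.
Mir322: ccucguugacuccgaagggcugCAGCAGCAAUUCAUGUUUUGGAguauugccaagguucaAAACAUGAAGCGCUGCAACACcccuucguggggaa
Mir503: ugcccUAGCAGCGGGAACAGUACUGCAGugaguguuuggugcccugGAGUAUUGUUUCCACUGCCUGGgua
miR-322-5p had 71 and 42 counts, against 1090 and 973 counts for miR-322-3p, which was at 131 and 120 CPM. The 3p arm thus held 93.9% of the hairpin's counts in replicate 1 and 95.9% in replicate 2, and the arm ratio was 18.7-fold towards 3p (log2 ratio of 5p over 3p -4.22 ± 0.41, adjusted p = 9.25e-235 and 8.68e-231 in the exact binomial tests). The arm that carries the family seed was thus the minor arm of this hairpin in these libraries.

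miR-503 used both arms nearly evenly. miR-503-5p had 513 and 489 counts, against 408 and 352 counts for miR-503-3p (48.9 and 43.4 CPM). The 5p arm was 1.32-fold higher (log2 ratio 0.40 ± 0.10, adjusted p = 0.000701 and 3.35e-06 in the exact binomial tests). Between these neighbours, miR-322-3p exceeded miR-503-3p 2.72-fold (log2 ratio 1.44 ± 0.035), while miR-322-5p lay below miR-503-5p.

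For the autosomal hairpin names miR-15a, miR-16 and miR-15b the 5p arm was the major arm. miR-15a-5p exceeded miR-15a-3p, which was at 4.55 ± 1.20 CPM, 5.13-fold (log2 ratio 2.36 ± 0.16). miR-16-5p exceeded the sum of both miR-16 3p arms 4.43-fold (2.15 ± 0.27). This ratio sums Mir16-1 and Mir16-2, and the arm use of each copy could not be read because their 5p arms are identical. miR-15b-5p exceeded miR-15b-3p, which was at 57.8 and 48.7 CPM, 1.99-fold (0.99 ± 0.31).

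**Figure D2:**
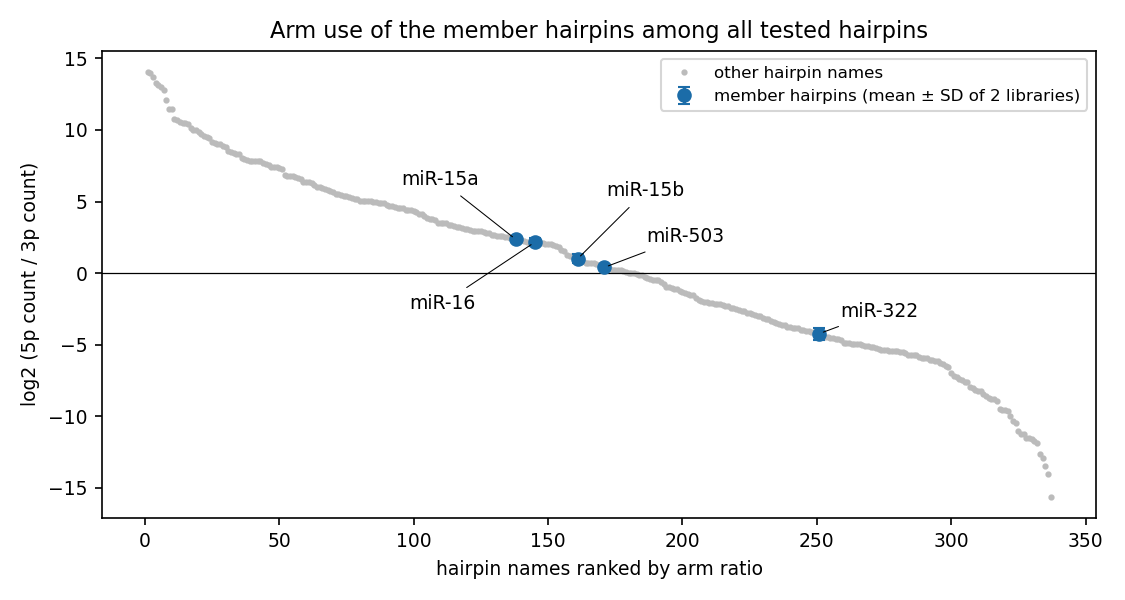
Mean log2 ratio of 5p over 3p counts for 337 hairpin names, ranked from most 5p to most 3p (grey points), with the 5 hairpin names of the group in blue and bars for the SD of 2 libraries. miR-15a, miR-16, miR-15b and miR-503 lie above 0 at ranks 138, 145, 161 and 171, and miR-322 lies at -4.22 and rank 251.

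The ratio of 5p over 3p counts differed between the libraries for the hairpin names miR-15b and miR-16, in opposite directions. The miR-16 ratio pools Mir16-1 and Mir16-2, so arm use and the balance of these copies cannot be told apart in it. For miR-15b the log2 ratio of 5p over 3p was 0.77 in replicate 1 and 1.21 in replicate 2, and for miR-16 it was 2.34 and 1.96. In Fisher's exact test over the 337 names, adjusted by Benjamini-Hochberg, the difference of replicate 1 minus replicate 2 was -0.44 for miR-15b (adjusted p = 0.00336) and 0.39 for miR-16 (adjusted p = 3.09e-10). Those of miR-15a, miR-322 and miR-503 did not pass (adjusted p from 0.254 to 1), and 10.7% of all names passed. Both arms are read in the same library, so this difference does not depend on how the libraries are scaled. The test compares 2 libraries and was chosen after the values were seen.

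The X-linked hairpins made up 16.2% ± 0.26 of the group's counts. In 5′ to 3′ order on the minus strand, Mir322 and Mir503 are followed by Mir351, Mir542, the copies of Mir450 and Mir450b, with 6176 bases between Mir322 and Mir450b. The whole cluster held 996 and 1032 CPM by replicate, of which miR-322 and miR-503 gave 23.6% ± 2.07. The 9 neighbouring arms summed to 3.24 times the 4 arms of miR-322 and miR-503 (log2 ratio 1.70 ± 0.17), and all 9 were detected in both libraries.

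Levels and arm use varied along the cluster. The miR-351 hairpin summed to 296 ± 19.5 CPM, almost all from miR-351-5p (309 and 281 CPM). The miR-542 hairpin summed to 258 ± 59.3 CPM, almost all from miR-542-3p (216 and 299 CPM). The miR-450a hairpins summed to 153 ± 7.85 CPM and miR-450b to 66.9 ± 8.65 CPM, both mainly 5p. Against these, miR-322 summed to 132 ± 10.1 CPM and miR-503 to 107 ± 4.85 CPM. The 3p arm held 99.7% ± 0.032 of the counts in miR-542, 94.9% ± 1.40 in miR-322, 43.1% ± 1.73 in miR-503 and 0.398% ± 0.179 in miR-351.

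**Figure D3:**
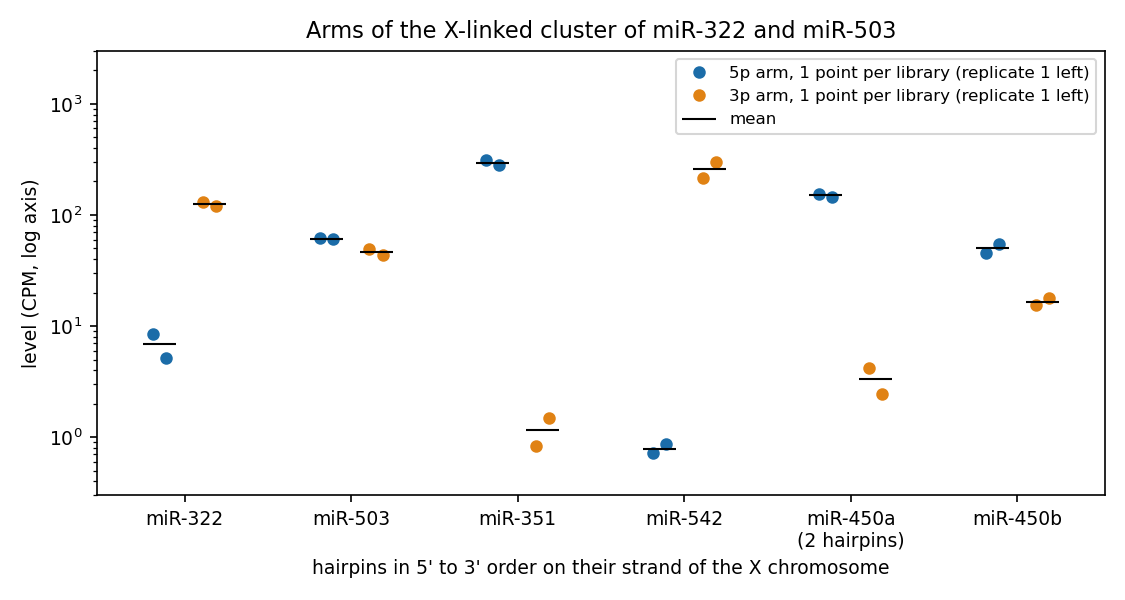
Level in CPM on a log axis of the 5p arm (blue) and the 3p arm (orange) of each hairpin of the X-linked cluster, in 5′ to 3′ order, with a point per library and a black line for the mean. The 3p arm is the higher for miR-322 and miR-542, the 5p arm is the higher for the others, and miR-503 has the smallest gap between arms.

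The most frequent read of each arm was the same in both libraries for all 10 arms, and 9 of them started at the RefSeq base. Over the 313 miRNAs at 10 CPM or more with a RefSeq sequence and a read in both libraries, 292 had the same read in both and 281 started at the RefSeq base. In the 5p arms this read always kept the seed, and where it differed from RefSeq the difference lay at the 3′ end. Only the most frequent read of each arm was given, so shifted starts among other reads cannot be seen. The most frequent read equalled the RefSeq form for miR-15a-5p, miR-15b-5p, miR-322-5p and miR-503-3p, which is 4 of 10. It was shorter at the 3′ end in 4 of 10 and longer in 2 of 10. miR-322-5p and miR-16-2-3p lie under 10 CPM. Of the 8 arms at 10 CPM or more, 3 equalled the RefSeq form (51.1% of the 313), 4 were shorter (22.4%) and 1 was longer (20.4%). For the 313, equality was asked in both libraries, while shorter and longer ends were read in replicate 1 only.

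The leading reads that differed from the reference are shown, with bases 2 to 8 in capitals.
miR-16-5p: uAGCAGCAcguaaauauuggc
miR-503-5p: uAGCAGCGggaacaguacug
miR-322-3p: aAACAUGAagcgcugcaaca
miR-16-1-3p: cCAGUAUUgacugugcugcugaa
miR-16-2-3p: cCAAUAUUauugugcugcuuua
miR-195a-3p: cCAAUAUUggcugugcugcucca
miR-16-5p and miR-322-3p ended 1 base early and miR-503-5p ended 3 bases early, and miR-15b-3p, not shown, also ended 1 base early. miR-16-1-3p ended 1 base late. miR-16-2-3p started 1 base later and ended 1 base later than its RefSeq form, which moved bases 2 to 8 to CAAUAUU. These are the same as bases 2 to 8 of miR-195a-3p, whose leading read is shown for that reason. With 20 and 15 counts behind miR-16-2-3p, its leading form rests on few reads.

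The libraries differed by more than counting error for some arms of the group, in both directions. Each of 710 miRNAs with at least 10 counts over both libraries was tested by an exact two-sided binomial test with Benjamini-Hochberg adjustment, which compares the libraries and not conditions. Of the 10 arms, 4 passed 0.05, against 27.7% of all tested. Among the 10, 3 were higher and 1 was lower in replicate 1, against 19.6% and 8.17% of all tested. Of the 4 arms at 100 CPM or more, miR-16-5p and miR-15b-5p passed and miR-16-1-3p and miR-322-3p did not. Of all 180 miRNAs at that level, 77.8% passed. miR-16-5p was higher in replicate 1 (log2 ratio of replicate 1 over replicate 2 0.27, adjusted p = 7.37e-27), as were miR-15b-3p (0.25, adjusted p = 0.0415) and miR-322-5p (0.71, adjusted p = 0.0401). miR-15b-5p was lower in replicate 1 (-0.19, adjusted p = 0.0220).

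The calls depended on how the libraries were scaled. Scaled by totals, the 710 miRNAs had a median log2 ratio of 0.12, against 0.0018 with TMM and 0.022 with DESeq2 size factors, and all calls split 139 higher to 58 lower, 78 to 107 and 88 to 99 in that order. By TMM, miR-16-5p stayed higher (0.15, adjusted p = 1.68e-08) and miR-15b-5p lower (-0.31, adjusted p = 4.47e-05), and miR-16-1-3p was also called lower (-0.25, adjusted p = 1.32e-05). miR-15b-3p (adjusted p = 0.436) and miR-322-5p (adjusted p = 0.121) no longer passed, and miR-503-5p changed sign (0.031 by totals, -0.090 by TMM) without a call under either. DESeq2 size factors called the same 3 arms as TMM.

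**Figure D4:**
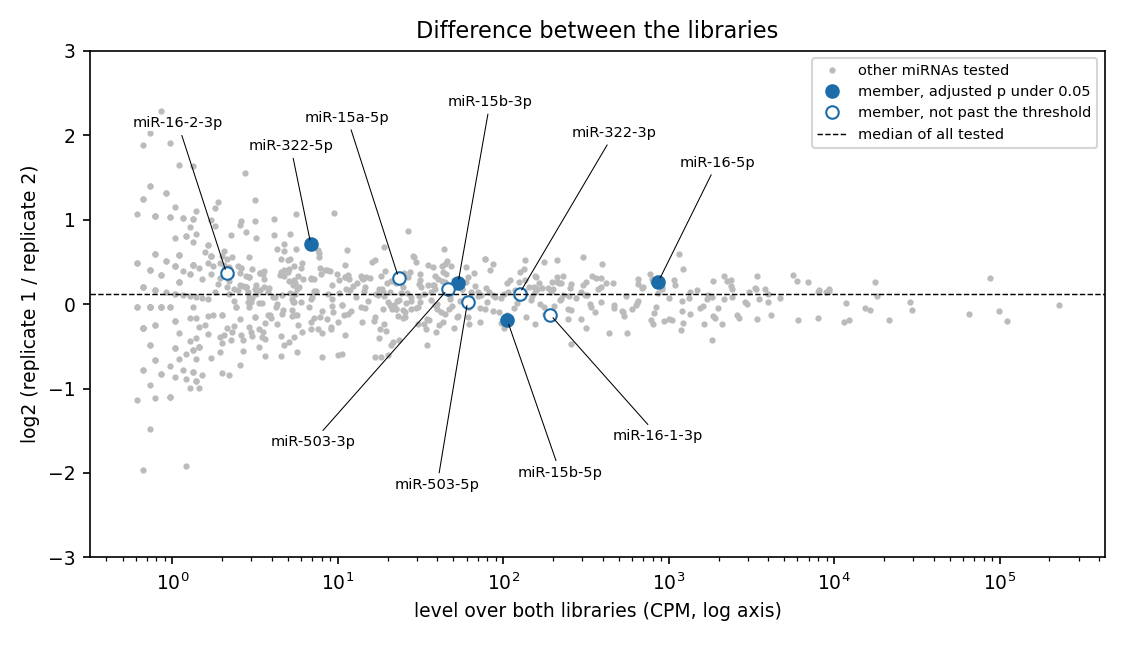
Log2 ratio of replicate 1 over replicate 2 against level in CPM (log axis) for 710 miRNAs (grey), with the 10 arms of the group in blue, filled where the adjusted p is under 0.05 and open otherwise. The dashed line is the median of all tested at 0.12, and the 4 filled points are miR-16-5p, miR-15b-3p and miR-322-5p above it and miR-15b-5p below it.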

How the data were processed

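Small RNA of 18 to 30 nt from retina was taken from a gel, ligated to adapters and, as cDNA of 60 to 80 nt, gel-selected again, per the labels' protocols. The submitters' processing notes name bcl2fastq 2.17.1.14. The aligner, counter and build were not given in the sources used here. The authors deposited estimated counts per mature miRNA without scaling, of which 6.77% (replicate 1) and 5.96% (replicate 2) were fractional, and they were rounded for every test. The deposited CPM, scaled by the authors, summed to 88.5% of a full library in both, and CPM was therefore recomputed from the totals of the count table. The deposited text table gave the most frequent sequence of each miRNA, marked against miRBase 21 per the file headers, and a gap mark at its start was read as a missing 5′ base.

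Levels are the mean and SD over 2 libraries, with exact (Clopper-Pearson) 95% binomial intervals. Ratios used 0.5 added to each count. Arms, libraries and arm ratios between libraries were tested over the whole table by exact binomial and Fisher's exact tests with Benjamini-Hochberg adjustment. The tests were also run on simulated counts that held counting error only. Simulated libraries were scaled by the miRNAs known to be unchanged, so that run does not cover scaling by totals. Numbered hairpin copies were summed where the other arm carries no number. The labels mention no molecular identifiers, so amplified copies may count as separate reads. Named miRNAs are the 10 arms, the other arm of their hairpins, seed relatives, X cluster neighbours, miR-103-3p and miR-107-3p, cell markers, and the miRNA on either side of miR-16-5p in level. The arms, lists and pairs were chosen with earlier results of these data known. Alternatives were deposited CPM, unrounded counts, other count minimums, 1 added to each count, 3 SD, TMM (edgeR 4.0.16) and DESeq2 1.42.0 scaling in R 4.3.3, and each library alone. Tests ran in SciPy 1.17.1 and statsmodels 0.14.6 under Python 3.11.15, with RefSeq GRCm38.p6 sequences and GENCODE M21 genes.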

Additional observations from a re-analysis of the deposited data

How the results depend on the processing

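With the authors' deposited CPM the summed share of the 10 arms was 0.131% in place of 0.148%, and the median arm was at 50.5 CPM in place of 57.1 CPM. Ratios of arms in the same library are not touched by the choice of total. Leaving out a replicate gave a share from 0.140% to 0.156% and a median arm from 54.4 to 59.7 CPM. The 5 arm calls stood in each library alone, but their rule already asks for this. The part of that rule on 2 SD was left out there. The number of arms called between the libraries was 4, and it was 2 when every miRNA with at least 1 count was tested, since more miRNAs then enter the adjustment. In that setting miR-15b-3p had an adjusted p of 0.0667 and miR-322-5p of 0.0645, and miR-16-1-3p passed with at least 100 counts (adjusted p = 0.0308). Over all alternatives the adjusted p of miR-15b-3p ranged from 0.0242 to 0.436 and that of miR-322-5p from 0.0234 to 0.121. With 3 SD or with 1 added to each count, 7 of 9 neighbouring pairs and 7 of 7 fixed pairs were still beyond the spread. The pairs beyond the spread and the differences between libraries need both libraries, so these calls have no value without a replicate. All 7 fixed pairs and all 9 neighbouring pairs had the same sign in each library. The order behind the 9 was set by the mean of these same libraries, so their signs are no independent check. No paired analysis was possible because the series holds a single group. An SD from 2 libraries is imprecise, and arms with few counts, such as miR-16-2-3p and miR-322-5p, are limited by depth.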

Other observations

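The miRNAs next to miR-16-5p in mean level over the 2 libraries were miR-126a-3p of endothelium above it (969 CPM in replicate 1 and 840 CPM in replicate 2) and miR-130b-5p below it (893 and 818 CPM). miR-497b, annotated on the strand opposite the miR-497a hairpin, was at 10.2 and 7.76 CPM, with a most frequent read that started 1 base later than its RefSeq form in both libraries. The miR-195a hairpin, a seed relative of the group, used both arms at about the same level, with 371 and 295 rounded counts for miR-195a-5p, against 326 and 331 for miR-195a-3p. Its log2 ratio of 5p over 3p was 0.19 in replicate 1 and -0.17 in replicate 2, which was not called in the exact binomial tests (adjusted p = 0.102 and 0.169).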
